A study of Mus musculus with 20 samples.

Results

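The response of the liver transcriptome to a high-fat diet (HFD) was compared with chow in mice whose sample titles give the genotype as LXRα-/-. All genes of the 10 libraries with that title were taken, 5 on HFD and 5 on chow, out of 20 libraries in the series, and 18905 genes had enough counts to be tested. The other 10 libraries are wild type (WT) on the same diets. Both groups compared here carry the same genotype label and the time label of week 24, and diet is the only label that separates them. A further genotype field calls these animals LXR knockdown, and neither the allele, the tissue in which it acts, nor the sex and age of the mice is given. The labels do not give the animal behind each library or a shared litter or batch, and the p-values below therefore describe the variation among sequenced libraries, part of which may be technical.

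LXRα, encoded by Nr1h3, is a nuclear receptor that is activated by oxidised cholesterol derivatives. In liver it is known to drive genes of sterol excretion, fatty acid synthesis (through SREBP-1c) and phospholipid remodelling, while LXRβ, encoded by Nr1h2, shares many of its targets. Long feeding of fat is known to bring triglyceride storage, fatty acid oxidation under PPARα and changes in bile acid and cholesterol genes in the mouse liver.

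RNA was measured by poly(A)-selected paired-end sequencing. The 10 libraries hold 75549139 to 108889938 gene counts each, so that 3 counts correspond to 0.0276 to 0.0397 CPM (counts scaled to library size). Liver identity was clear from the defining markers: Alb, which encodes serum albumin, reached 24207 to 81084 CPM over the 10 libraries. The protocol text speaks of an adipose type, but Lep had no count in any of the 10 libraries and Adipoq did not exceed 0.172 CPM. The full list of 12 adipocyte markers summed to 969 to 3544 CPM on chow and 2034 to 3377 CPM on HFD. Some of its other members were therefore abundant, and Lep and Adipoq do not stand for the whole list. Mitochondrially encoded genes took 18.2% to 29.6% of counts on chow and 14.1% to 20.4% on HFD, and 3.89% to 5.67% in WT chow. Some libraries stood apart from their group. HFD library 3 and chow library 2 had a clock level (mean log2 CPM of Arntl and Npas2 minus that of Dbp and Per3) of -1.20 and -1.30, against -6.29 to -5.23 and -5.20 to -3.98 in the other libraries of their groups. Chow library 1 had 14.1% of its counts in pseudogenes, against 8.36% to 9.82% in the other chow libraries.

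The gene named in the genotype label was examined first. Nr1h3 stood at 134, 161, 161, 23.4 and 194 CPM in chow libraries 1 to 5 and at 188, 27.2, 165, 187 and 194 CPM in HFD libraries 1 to 5. In each group 4 libraries lay close together and 1 library lay several-fold below them, and the groups overlapped. Per length, Nr1h3 averaged 47.9 ± 23.4 FPKM in the chow group and 59.9 ± 27.9 FPKM in the HFD group (mean ± SD over 5 libraries each), a difference of 12 FPKM with a two-sided exact permutation p of 0.444, where 0.00794 is the smallest p possible. Without HFD library 2 the difference was 24.4 FPKM (exact permutation p = 0.0159, the smallest 126 arrangements allow), and without chow library 4 it was 2.01 FPKM. The counts do not tell which part of the gene they come from, so transcript of Nr1h3 in these libraries does not check the label. Nr1h2 differed by 0.09 ± 0.28 on the log2 scale (estimate ± SE, adjusted p = 0.986).

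In all, 3 genes rose on HFD and none fell, at an adjusted p under 0.05 (edgeR quasi-likelihood test, Benjamini-Hochberg over 18905 genes), which is 0.0159% of the genes tested. They were Map3k13, Poc1b and Papola. At an unadjusted p under 0.05, 1278 genes or 6.76% differed, 661 of them higher (3.5%) and 617 lower (3.26%) on HFD. DESeq2, the more permissive tool here, called 66 genes, 44 higher and 22 lower, which is 0.35% of the 18872 genes it gave an adjusted p. In simulated counts, the same edgeR test recovered none of the 1.5-fold changes, 34.3% of the 2-fold changes and 78.8% of the 4-fold changes. The counts were simulated for the genes tested, with changes only in genes above a minimum mean CPM, and no simulated library stood apart. At such levels most differences of 2-fold and less would not be called in this comparison, and the shares do not cover genes of lower level. The median log2 fold change over all genes tested was -0.01, and 48.5% of genes lay above 0.

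Map3k13 encodes a kinase that acts upstream of JNK and is known for stress signalling. It was counted at 1.94, 1.69, 1.96, 3.83 and 3.16 CPM on chow and at 6.88, 6.90, 7.54, 9.93 and 8.57 CPM on HFD. All HFD libraries lay above all chow libraries, with an estimated log2 fold change of 1.66 ± 0.23 (± SE; edgeR adjusted p = 0.0135). The gene lies on the plus strand of chromosome 16 from 21794346 to 21933439 (GRCm38) and overlaps the long noncoding gene 1300002E11Rik, whose own log2 fold change was -0.49, and the pseudogene Gm6467 at 0.30. Whether the counting used strand is not given in the sources used here, so reads shared with overlapping genes cannot be told apart.

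Poc1b encodes a protein of the centriole and the ciliary base. Its CPM was 0.54, 0.90, 1.10, 0.84 and 0.45 on chow and 4.84, 1.63, 4.38, 6.17 and 5.997 on HFD. HFD library 2 was nearest to chow, and the groups did not overlap. The log2 fold change was 2.58 ± 0.40 (SE, adjusted p = 0.0267). Poc1b spans 99107036 to 99198074 on the plus strand of chromosome 10 and contains Galnt4, a glycosyltransferase gene on the same strand, whose log2 fold change was 0.37.

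Papola encodes the poly(A) polymerase that adds tails to most messenger RNAs. It stood at 10.4, 9.45, 13.7, 10.5 and 8.56 CPM on chow and at 30.7, 30.3, 28.7, 30.4 and 34.1 CPM on HFD. The 5 HFD libraries were close together, at 2.93-fold the chow level by the fitted log2 fold change of 1.55 ± 0.26 (SE, adjusted p = 0.0462). Papola lies on chromosome 12 from 105784694 to 105838807 on the plus strand, with no other gene of the deposited table across it.

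The calls rest on the full set of libraries, WT included, since all 4 groups share the estimate of spread. In a fit of only the 2 groups compared, Papola alone passed (edgeR adjusted p = 0.0115). Map3k13 and Poc1b did not pass in that fit (edgeR adjusted p = 0.297 and 0.276), with log2 fold changes of 1.66 and 2.58. Leaving out 1 library at a time left 0 to 15 genes called: none without chow library 1, 2 or 3 or HFD library 4 or 5, 1 without chow library 5 or HFD library 1, and 15 without HFD library 3. HFD library 3 is the lowest HFD library for the genes given below with a p from that refit (Msmo1, Elovl5, Fads1, Bdh1, Oat, Fabp2 and Lect2). The refit, 1 of 10 leave-outs, was singled out after its values were seen, so it gives no support to a difference in these genes. Over all these refits the log2 fold change of Map3k13 stayed at 1.55 to 1.86, that of Poc1b at 2.44 to 2.80 and that of Papola at 1.49 to 1.66. Without both libraries whose clock level stood apart, no gene passed in edgeR, and 1957 genes had an unadjusted p under 0.05. With the mitochondrial share as a covariate no gene passed either, and 786 had an unadjusted p under 0.05. All 3 genes passed the test of the difference from WT, as did 19.4% of all genes tested. The log2 fold change was larger than in WT by 1.26 for Map3k13 (edgeR interaction, adjusted p = 0.00957). It was larger by 4.25 for Poc1b (adjusted p = 7.1e-05) and by 1.78 for Papola (adjusted p = 0.00191). The 3 genes were chosen by their diet difference here, which that test contains, so passing it is no separate support. The WT groups also differ in mitochondrial share and clock level, as given below.

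**Figure D1:**
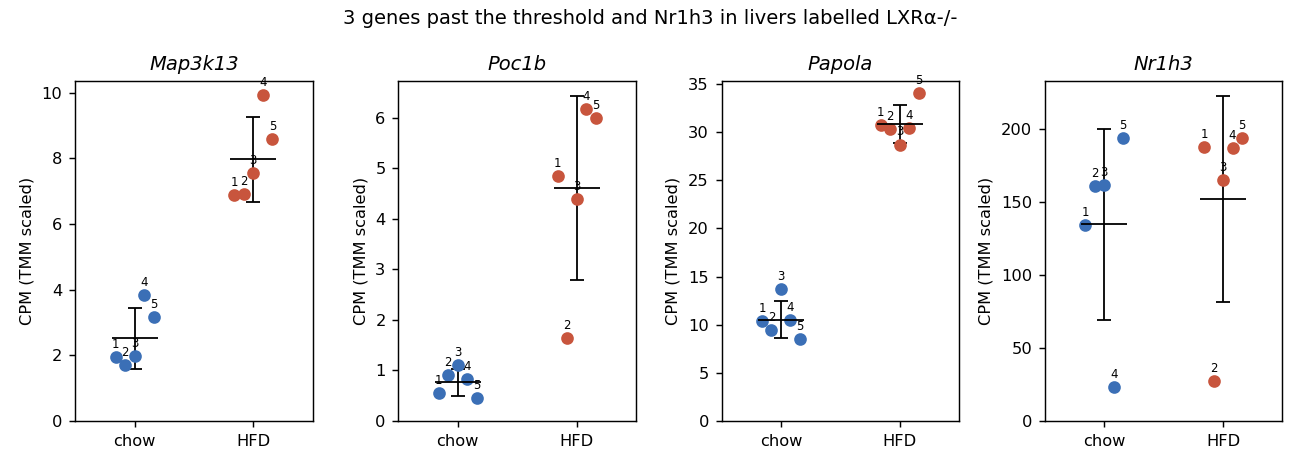
CPM (TMM scaled) of Map3k13, Poc1b, Papola and Nr1h3 in each of the 5 chow and 5 HFD libraries labelled LXRα-/- (points, numbered by replicate), with the group mean (line) and SD (bars). The groups do not overlap for Map3k13, Poc1b and Papola, while Nr1h3 has 1 low library in each group, chow 4 and HFD 2.

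The promoter windows of the genes that rose are shown because they are the sequences nearest to the 3 calls, with those of Hsd17b7 and Hmgcs1 beside them as sterol genes that hold a motif match. Each window runs from 250 bases before to 50 bases after the RefSeq start (GRCm38.p6, gene strand, 5′ to 3′), and capitals mark matches. Searched on both strands were an SRE-like element (TCACNCCAC, bound by SREBPs), the E-box (CACGTG), direct repeats of AGGNCA spaced by 1 base (DR1) or by 4 bases (DR4) and the D-box (TTANGTAA); no motif contains another. The windows are chr16:21891719-21892018 for Map3k13, which lies inside the span that the deposited table gives the gene, chr10:99106832-99107131 for Poc1b, chr12:105784447-105784746 for Papola, chr1:169969156-169969455 (minus strand) for Hsd17b7 and chr13:119690101-119690400 for Hmgcs1.
Map3k13: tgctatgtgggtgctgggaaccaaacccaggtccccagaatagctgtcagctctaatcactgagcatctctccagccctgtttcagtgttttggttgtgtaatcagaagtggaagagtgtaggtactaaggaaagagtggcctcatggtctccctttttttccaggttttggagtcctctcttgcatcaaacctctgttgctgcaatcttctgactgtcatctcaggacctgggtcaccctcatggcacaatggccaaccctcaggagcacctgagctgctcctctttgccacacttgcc
Poc1b: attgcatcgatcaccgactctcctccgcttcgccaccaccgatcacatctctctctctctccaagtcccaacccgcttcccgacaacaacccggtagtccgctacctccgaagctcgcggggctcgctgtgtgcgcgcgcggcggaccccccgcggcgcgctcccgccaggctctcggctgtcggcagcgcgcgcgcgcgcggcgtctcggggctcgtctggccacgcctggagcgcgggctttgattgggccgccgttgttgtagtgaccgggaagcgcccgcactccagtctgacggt
Papola: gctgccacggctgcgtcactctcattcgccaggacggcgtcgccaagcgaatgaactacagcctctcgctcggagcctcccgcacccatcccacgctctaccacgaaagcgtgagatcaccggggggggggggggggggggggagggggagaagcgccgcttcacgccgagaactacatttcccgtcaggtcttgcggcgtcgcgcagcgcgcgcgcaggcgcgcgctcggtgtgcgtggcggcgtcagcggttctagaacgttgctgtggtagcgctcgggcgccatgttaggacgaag
Hsd17b7: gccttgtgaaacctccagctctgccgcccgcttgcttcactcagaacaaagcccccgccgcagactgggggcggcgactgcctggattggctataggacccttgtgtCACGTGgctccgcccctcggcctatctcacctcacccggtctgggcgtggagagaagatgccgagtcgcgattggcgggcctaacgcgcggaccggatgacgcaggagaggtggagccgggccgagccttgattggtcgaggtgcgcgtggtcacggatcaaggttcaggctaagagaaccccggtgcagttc
Hmgcs1: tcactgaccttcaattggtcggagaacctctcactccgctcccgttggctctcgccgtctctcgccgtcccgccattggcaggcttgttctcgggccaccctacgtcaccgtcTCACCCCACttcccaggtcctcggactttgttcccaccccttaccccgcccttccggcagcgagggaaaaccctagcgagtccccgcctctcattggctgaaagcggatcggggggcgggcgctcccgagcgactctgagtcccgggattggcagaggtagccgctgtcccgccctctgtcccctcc

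None of the 5 motifs occurred in the windows of Map3k13, Poc1b and Papola. Hsd17b7 held 1 E-box and Hmgcs1 held 1 SRE-like match. Of 32851 mouse promoter windows, 1.24% hold the SRE-like element, 7.15% an E-box, 0.381% DR1, 0.253% DR4 and 2.32% a D-box. Among the 17 of 25 genes of cholesterol synthesis and uptake with a window, 1 held the SRE-like element and 4 an E-box (Dhcr7, Hsd17b7, Insig1 and Sc5d). Among the 20 of 27 fatty acid oxidation genes with a window, Ehhadh held the SRE-like element and Fabp1 held DR1. These matches are descriptions of letters in a short window and say nothing of binding.

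Groups that did not overlap were rare: 157 genes or 0.83%, 79 with all HFD libraries higher (0.418%) and 78 lower (0.413%). Besides Papola, the 11 with the smallest p among those higher on HFD and with at least 1 FPKM were Dgcr2, Paqr7, Ccpg1os, Rdh9, Dnajc16, Igsf11, Crat, 6030458C11Rik, Tert, Polr3gl and Abcb6, and none passed the threshold in edgeR (adjusted p 0.414 to 0.557). DESeq2 called Paqr7, Rdh9, Ccpg1os, Dnajc16 and Crat among them (adjusted p 0.0160 to 0.0441). Rdh9, a retinol dehydrogenase, had the largest difference among them. It was counted at 0.46, 1.33, 4.22, 15.5 and 0.66 CPM on chow and at 57.3, 57.3, 22.5, 53.4 and 81.2 CPM on HFD, an estimated log2 fold change of 3.61 ± 0.96 (± SE; edgeR adjusted p = 0.482). Paqr7, a membrane progestin receptor, stood at 12.1, 17.5, 1.71, 21.2 and 31.4 CPM on chow and 32.9, 86.6, 44.6, 95.7 and 86.4 CPM on HFD, and its log2 fold change was 2.05 ± 0.51 (SE, adjusted p = 0.414). Crat, the carnitine acetyltransferase that moves acetyl groups out of mitochondria, stood at 6.28, 7.66, 6.24, 4.29 and 3.50 CPM on chow and 10.3, 13.4, 29.6, 11.5 and 61.2 CPM on HFD. Its HFD values were spread widely, with library 5 the highest.

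Lower on HFD in every library, and again not past the threshold in edgeR (adjusted p 0.354 to 0.637), were Gm25432, Pdzk1ip1, Tifa, Des, mt-Ta, Nkg7, Gm13889, Gm6285, Mfge8, Mir703, Spon2 and Tmem81. Mir703 is annotated as a miRNA and mt-Ta as a mitochondrial tRNA. Whether their counts come from overlapping or adjacent genes was not tested. DESeq2 called Gm25432 and Pdzk1ip1 (adjusted p = 0.0049 and 0.0464). Tifa, an adaptor of NF-κB signalling, was counted at 33.7, 16.9, 14.1, 13.9 and 34.9 CPM on chow and 11.9, 10.9, 13.3, 8.56 and 6.498 CPM on HFD (log2 fold change -1.15 ± 0.31, SE). Des encodes desmin, an intermediate filament of stellate and muscle cells, and had 12.4, 13.5, 11.8, 12.5 and 15.6 CPM on chow against 10.1, 8.56, 10.6, 7.16 and 7.22 CPM on HFD. Nkg7, a granule gene of cytotoxic lymphocytes, lay at 1.09 to 2.08 CPM on chow and 0.586 to 0.962 CPM on HFD.

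Since single calls were few, the data are described by gene lists, 56 in all, of which none held a gene called by edgeR. DESeq2 called 9 list members: Msmo1, Bdh1, Elovl5 and Lpin2, which were higher on HFD, and Timd4, Prtn3, Ighg1, Krt19 and Moxd1, which were lower (adjusted p 0.00566 to 0.0366). These are 0.797% of the 1129 list genes with an adjusted p, against 0.35% of all genes, and nothing is read from that share. The median log2 fold change was above 0 in 25 lists and below 0 in 31, from -1.28 for neutrophil markers to 0.72 for female-biased liver genes. In 17 lists the sign of the median changed when 1 of the libraries was left out. Per library, the list levels (mean log2 CPM of the members) of the HFD and chow groups overlapped in 55 of the 56 lists. Without HFD library 3, a choice made after its levels were seen, they did not overlap in 5 lists: cholesterol synthesis and uptake, bile acid synthesis, fatty acid oxidation and ketogenesis, the citrate cycle, and cholangiocyte and progenitor markers.

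**Figure D2:**
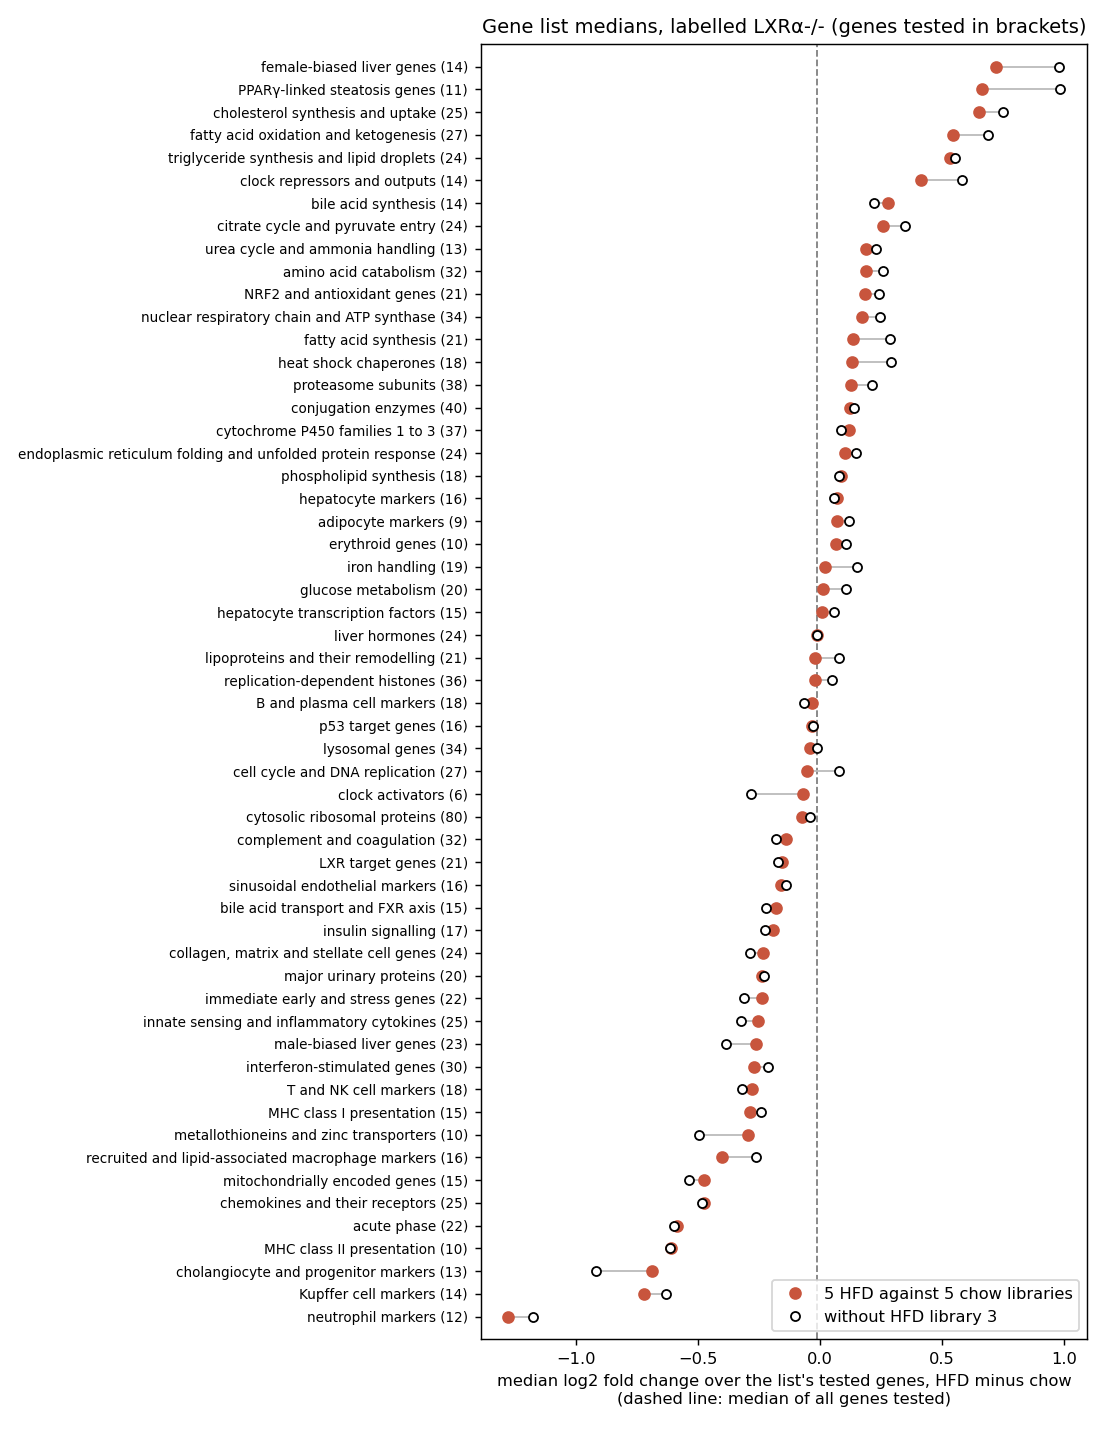
Median log2 fold change (HFD minus chow, x axis) of each of the 56 gene lists, with the number of genes tested in brackets; filled points use all 10 libraries, open points leave out HFD library 3, and the dashed line is the median of all genes tested. Sterol, fat oxidation and fat storage lists lie on the right (cholesterol synthesis and uptake at 0.65, fatty acid oxidation and ketogenesis at 0.54), and neutrophil (-1.28) and Kupffer cell (-0.72) lists on the left.

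All 25 genes of the cholesterol synthesis and uptake list had a log2 fold change above 0, with a median of 0.65 against -0.01 for all genes, and 9 of 25 had an unadjusted p under 0.05, where 3.5% of all genes did so in this direction. None passed the threshold in edgeR, and DESeq2 called Msmo1 (adjusted p = 0.0364). The list level was 5.001, 4.73, 4.58, 5.09 and 4.99 on chow and 5.68, 5.65, 4.62, 5.98 and 5.96 on HFD. HFD library 3 lay within the chow range and the other 4 HFD libraries lay above it, and without it the median was 0.75.

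Msmo1, a C4-methyl sterol oxidase, had the smallest p of the list. It was counted at 42.8, 24.7, 22.1, 28.2 and 32.9 CPM on chow and at 108, 117, 21.2, 90.6 and 83.5 CPM on HFD, an estimated log2 fold change of 1.48 ± 0.38 (± SE; edgeR adjusted p = 0.414). Without HFD library 3 the Msmo1 estimate was 1.73 (adjusted p = 0.0288). Hsd17b7, which reduces a 3-keto sterol, stood at 7.88, 8.21, 6.69, 11.4 and 8.37 CPM on chow and 22.5, 24.9, 6.62, 22.5 and 24.0 CPM on HFD, and its log2 fold change was 1.24 ± 0.35 (SE). Sc5d, the lathosterol oxidase, had a log2 fold change of 0.54 ± 0.21 (SE). Hmgcs1, the synthase of the first committed step, varied from 2.45 to 311 CPM within chow and from 13.2 to 452 CPM within HFD, so that its log2 fold change of 0.76 had an SE of 1.23.

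**Figure D3:**
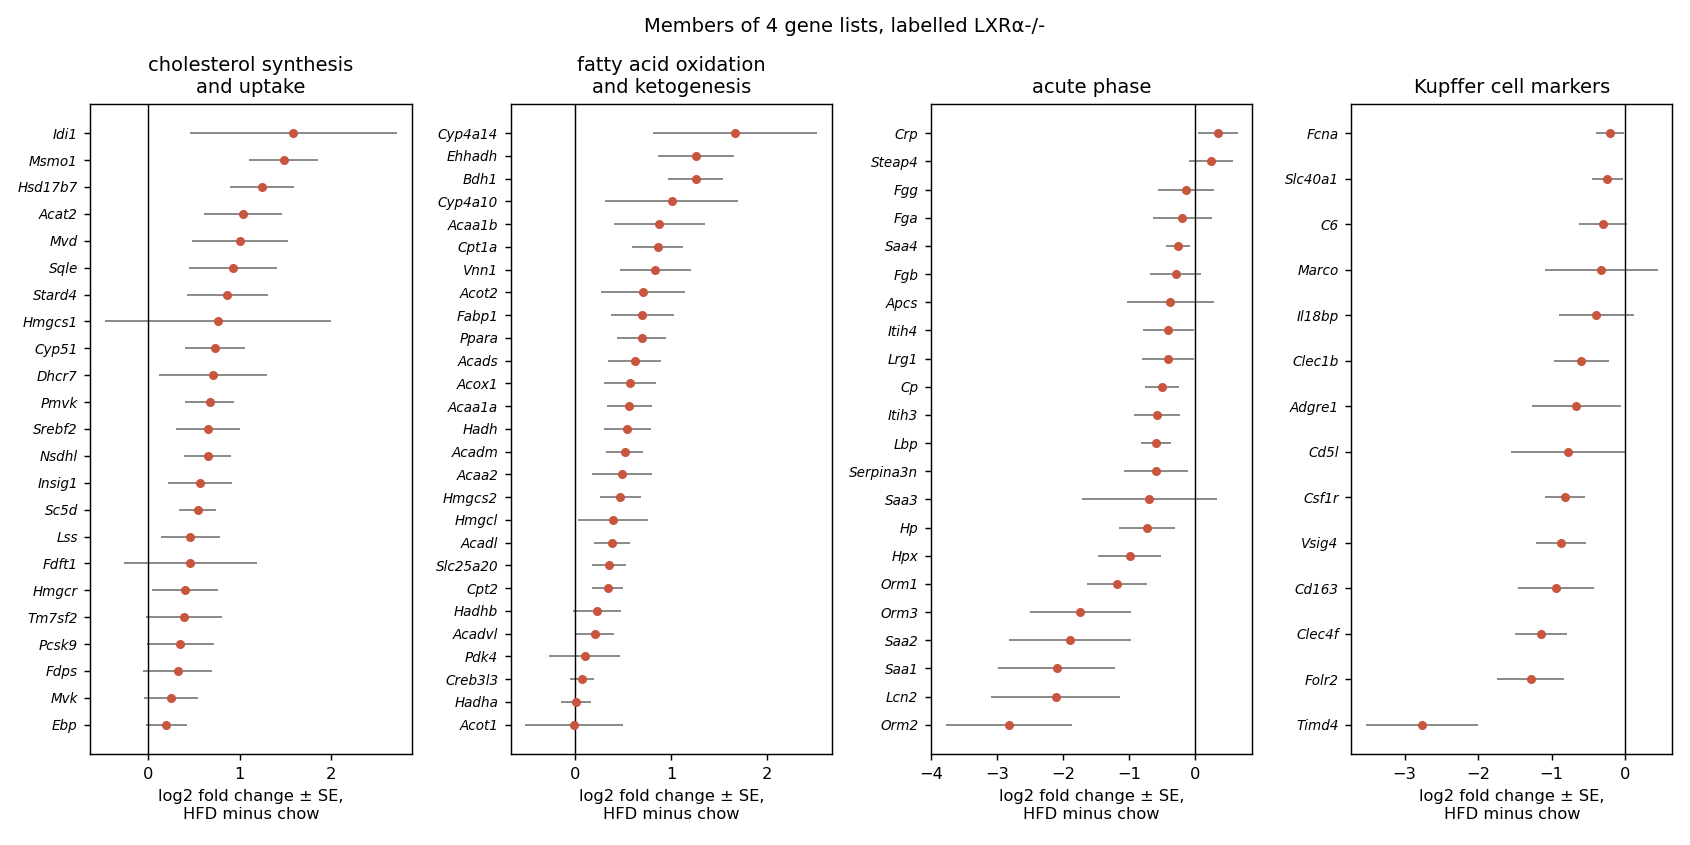
Log2 fold change (HFD minus chow) with SE of members of 4 gene lists: cholesterol synthesis and uptake (23 of its 25 genes are drawn), fatty acid oxidation and ketogenesis (27), acute phase (22) and Kupffer cell markers (14). All 23 cholesterol genes drawn and 26 of 27 oxidation genes lie above 0, and 20 of 22 acute phase genes and all 14 Kupffer cell markers lie below 0, with wide errors for single genes.

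The fatty acid synthesis list, which includes elongases and desaturases, had a median of 0.13, with 13 of 21 genes above 0 and values from -2.92 to 1.5. Leaving out 1 library moved that median from 0.015 (without chow library 2) to 0.46 (without chow library 4). Elovl5, which elongates polyunsaturated chains, was counted at 121, 117, 230, 133 and 101 CPM on chow and at 389, 489, 94.0, 502 and 507 CPM on HFD. Its log2 fold change was 1.5 ± 0.38 (SE, adjusted p = 0.414), and 1.75 without HFD library 3 (adjusted p = 0.0264). Fads1, the delta-5 desaturase, had 109, 129, 210, 182 and 165 CPM on chow and 336, 392, 114, 408 and 352 CPM on HFD. Its estimate was 1.01 ± 0.27 on the log2 scale (SE, edgeR adjusted p = 0.482), and 1.23 without HFD library 3 (adjusted p = 0.0182). For both genes 4 HFD libraries lay above every chow library and library 3 lay within or below the chow range. Fads2, the delta-6 desaturase, and Elovl2 had log2 fold changes of 1.39 ± 0.39 and 0.84 ± 0.26 (SE).

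Fatty acid oxidation and ketogenesis, the pathway that burns fat in mitochondria and peroxisomes, had a median of 0.54. Of 27 genes 26 lay above 0 and 12 had an unadjusted p under 0.05 and were higher on HFD, against 3.5% of all genes. None passed the threshold in edgeR, and DESeq2 called Bdh1 (adjusted p = 0.0162). The list level was 6.08, 6.17, 6.85, 6.49 and 5.88 on chow and 7.09, 7.12, 6.15, 7.07 and 7.15 on HFD, so that 4 HFD libraries lay within 0.1 of each other and above every chow library, and library 3 lay within the chow range. The median without HFD library 3 was 0.69.

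Bdh1, which makes the ketone body β-hydroxybutyrate, stood at 32.8, 46.7, 77.5, 64.2 and 55.0 CPM on chow and at 128, 140, 46.1, 127 and 217 CPM on HFD. It had an estimate of 1.25 ± 0.29 on the log2 scale (SE, adjusted p = 0.384), and 1.47 without HFD library 3 (adjusted p = 0.0182). Cpt1a, the gate of fatty acid entry into mitochondria, had 76.6, 63.3, 108, 70.4 and 80.3 CPM on chow and 164, 173, 62.4, 162 and 161 CPM on HFD. In both genes HFD library 3 was the lowest HFD value and the other 4 lay above every chow library. Ehhadh, a peroxisomal enzyme of β-oxidation, had a log2 fold change of 1.25 ± 0.39 and Acadm, the medium-chain dehydrogenase, 0.51 ± 0.19 (SE).

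For fat storage, the triglyceride and lipid droplet list had a median of 0.53, with 18 of 24 genes above 0, and the PPARγ-linked steatosis list had a median of 0.67, with 9 of 11 above 0. No member passed in edgeR, and the levels of both lists overlapped between the groups. Lpin2, a phosphatidate phosphatase of triglyceride synthesis, stood at 19.4, 20.1, 25.3, 19.5 and 13.8 CPM on chow and at 147, 17.3, 8.80, 172 and 208 CPM on HFD. HFD libraries 1, 4 and 5 were far above chow and libraries 2 and 3 were not, and the log2 fold change was 2.49 ± 0.72 (SE, adjusted p = 0.482). Plin2, which coats lipid droplets, had 92.1, 105, 122, 157 and 88.2 CPM on chow and 210, 240, 103, 212 and 213 CPM on HFD. Cidec, a droplet fusion protein and PPARγ target, reached 11.2, 15.98, 4.30, 21.4 and 52.5 CPM on HFD, with 0.49 to 9.49 CPM on chow. Mgll, the monoglyceride lipase, was at 58.1 and 61.4 CPM in HFD libraries 4 and 5, and at 7.20 to 12.1 CPM in the other HFD libraries. Cd36, a fatty acid receptor, and Mogat1 had log2 fold changes of 1.02 ± 0.47 and 1.49 ± 0.70 (SE).

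Oat and Fabp2, named after their values were seen, were called by DESeq2 (adjusted p = 0.00359 for both) and not by edgeR with all libraries. Oat, the ornithine aminotransferase, stood at 93.8, 142, 286, 138 and 126 CPM on chow and 371, 565, 122, 718 and 767 CPM on HFD. Fabp2, a fatty acid binding protein, stood at 11.8, 14.8, 25.7, 20.8 and 7.56 CPM on chow and 62.1, 84.7, 11.6, 77.6 and 97.3 CPM on HFD. Without HFD library 3 their log2 fold changes were 1.95 and 2.32 (adjusted p = 0.0177 and 0.0182).

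Bile acid synthesis genes had a median of 0.28, with 13 of 14 above 0; it was 0.17 without chow library 1 or without HFD library 2. Cyp7a1, the rate-limiting enzyme of the pathway, was counted at 3.77, 2.05, 3.69, 8.84 and 5.76 CPM on chow and at 12.4, 23.2, 0.955, 31.1 and 12.1 CPM on HFD (log2 fold change 1.73 ± 0.64, SE, adjusted p = 0.621). HFD library 3 was the lowest of all 10 and the other HFD libraries were above every chow library. Cyp8b1, which sets the share of cholic acid, had a log2 fold change of 1.13 ± 0.56, and Hsd17b4 and Scp2 of the peroxisomal side-chain steps had 0.54 ± 0.20 and 0.51 ± 0.19 (SE). Genes of bile acid transport and the FXR axis had a median of -0.18, with 5 of 15 above 0, and of -0.05 without chow library 2 and -0.09 without HFD library 4. Among them Abcc4, a basolateral efflux pump, had -0.89 ± 0.39 and Slc51a, a subunit of the organic solute transporter, -1.57 ± 0.75 (SE).

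LXR target genes as a list stood near all genes. The median was -0.16, 8 of 21 lay above 0, and the list level averaged 5.84 ± 0.16 in the chow group and 5.84 ± 0.13 in the HFD group (mean ± SD over 5 libraries each). The median was -0.01 without chow library 1, with 10 of 21 above 0, and 0.10 with the mitochondrial share as a covariate. Apart from Cyp7a1, members with the smallest p were Lpl, lipoprotein lipase, at -0.55 ± 0.26, Abcg1, a sterol exporter, at -0.30 ± 0.18, and Pltp, the phospholipid transfer protein, at -0.62 ± 0.52 (SE). Lipoprotein genes had a median of -0.02 with 10 of 21 above 0. Apoa4, an apolipoprotein of triglyceride-rich particles, stood at 103, 91.8, 86.0, 318 and 111 CPM on chow and 270, 424, 119, 571 and 715 CPM on HFD, an estimated log2 fold change of 1.56 ± 0.45 (± SE; edgeR adjusted p = 0.482).

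The citrate cycle and pyruvate entry list had a median of 0.26 with 22 of 24 above 0, and the nuclear respiratory chain list had 0.17 with 26 of 34 above 0 (0.04 without chow library 1 and -0.04 with the mitochondrial share as a covariate). Mpc1, a subunit of the mitochondrial pyruvate carrier, stood at 3.27, 6.02, 12.4, 7.45 and 3.41 CPM on chow and 16.5, 19.7, 5.67, 17.8 and 20.6 CPM on HFD (log2 fold change 1.3 ± 0.36, SE). Suclg1 of the citrate cycle and Ndufa1 of complex I had 0.84 ± 0.38 and 0.49 ± 0.22 (SE). All 15 mitochondrially encoded genes lay below 0, with a median of -0.47. The ribosomal RNA mt-Rnr1 had 5711, 2935, 2471, 2901 and 7654 CPM on chow and 1972, 2283, 3130, 1258 and 1965 CPM on HFD, where chow libraries 1 and 5 stood highest. Its log2 fold change was -1.03 ± 0.32 (SE), and those of mt-Rnr2 and mt-Nd1 were -0.97 ± 0.39 and -0.58 ± 0.23 (SE). The part that RNA quality plays in this difference was not tested.

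Other hepatocyte lists had medians nearer to that of all genes. Hepatocyte markers had a median of 0.07 (9 of 16 above 0), hepatocyte transcription factors 0.01 (8 of 15), glucose metabolism 0.01 (10 of 20), phospholipid synthesis 0.09 (10 of 18), cytochromes P450 0.12 (22 of 37), conjugation enzymes 0.12 (26 of 40) and iron handling 0.02 (10 of 19). The amino acid catabolism list had a median of 0.19 with 25 of 32 above 0, and the urea cycle list 0.19 with 10 of 13. They were 0.09 without HFD library 4 and 0.05 without chow library 1, in that order. Leaving out 1 library moved the P450 median from 0.01 (without chow library 1) to 0.37 (without chow library 3), and that of conjugation enzymes from 0.06 (without HFD library 4) to 0.24 (without chow library 3). The iron handling median was 0.15 without HFD library 3 and -0.17 with the clock level as a covariate. Hepatocyte marker, transcription factor, glucose and phospholipid medians also took both signs when 1 library was left out (-0.08 to 0.18 over these 4 lists). Glul, glutamine synthetase of the cells around the central vein, stood at 465, 445, 504, 531 and 561 CPM on chow and 616, 834, 402, 806 and 1049 CPM on HFD, and Tdo2, which opens the tryptophan ring, had a log2 fold change of 0.46 ± 0.22 (SE). Insulin signalling genes had a median of -0.19 with 3 of 17 above 0, and Irs2, an adaptor of the insulin receptor, stood at -1.04 ± 0.54 (SE). Pfkfb3, which makes the activator of glycolysis fructose 2,6-bisphosphate, had 3.30, 1.90, 1.18, 3.56 and 0.53 CPM on chow and 0.29, 0.47, 0.16, 0.57 and 0.71 CPM on HFD (log2 fold change -2.25 ± 0.66, SE, adjusted p = 0.495).

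Liver hormones had a median of -0.01 (-0.21 to 0.14 when leaving out 1 library), and single members had estimates of both signs. Lect2, a secreted hepatokine, stood at 47.9, 72.3, 135, 113 and 74.6 CPM on chow and 187, 233, 62.5, 233 and 219 CPM on HFD. Its log2 fold change was 1.08 ± 0.30 (SE, edgeR adjusted p = 0.482), and 1.3 without HFD library 3 (adjusted p = 0.0466). Hamp, which encodes the iron hormone hepcidin, had 1118, 2195, 2075, 1166 and 537 CPM on chow and 2661, 2449, 2379, 2506 and 2330 CPM on HFD, without overlap of the groups (log2 fold change 0.80 ± 0.34, SE, adjusted p = 0.702). Fgf21, a fasting hormone under PPARα, had 1.28 ± 0.59 and Fetub, fetuin-B, -0.62 ± 0.24 (SE). Cyp2c38 and Gstk1 had 1.26 ± 0.46 and 0.76 ± 0.25, and Cyp3a59 had -1.12 ± 0.47 (SE).

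Protein quality control lists had medians of 0.13 for proteasome subunits (29 of 38 above 0), 0.13 for heat shock chaperones (14 of 18), 0.10 for endoplasmic reticulum folding (16 of 24), -0.07 for cytosolic ribosomal proteins (29 of 80), -0.04 for lysosomal genes (17 of 34) and 0.19 for NRF2 and antioxidant genes (13 of 21). For ribosomal proteins the median was -0.20 with 10 of 80 above 0 without chow library 1, and -0.31 with 6 of 80 above 0 with the mitochondrial share as a covariate. Leaving out 1 library moved the heat shock median from 0.06 (chow library 1) to 0.32 (chow library 5), the folding median from -0.06 (HFD library 5) to 0.17 (chow library 5), the proteasome median from 0.06 (chow library 1) to 0.21 (HFD library 3) and the NRF2 median down to 0.04 (HFD library 5). Hspb1, a small heat shock protein, stood at 9.05, 18.1, 16.3, 25.9 and 29.4 CPM on chow and 55.0, 71.4, 20.6, 44.97 and 69.9 CPM on HFD (log2 fold change 1.41 ± 0.41, SE). Gclm, a subunit of the enzyme that starts glutathione synthesis, had 0.95 ± 0.43, and the ribosomal protein gene Rpl14 had -0.49 ± 0.16 (SE). Cell cycle genes had a median of -0.05 (12 of 27 above 0), p53 targets -0.04 (7 of 16) and replication-dependent histones -0.02 (18 of 36), and each took both signs when 1 library was left out. Pcna and Ccng1 had 0.56 ± 0.23 and 0.58 ± 0.26 (SE).

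Acute phase genes, which hepatocytes secrete in inflammation, had a median of -0.59, with 2 of 22 genes above 0 and 6 with an unadjusted p under 0.05 and lower on HFD, where 3.26% of all genes did so. The list level was 7.68, 6.73, 7.32, 7.81 and 8.94 on chow and 7.13, 7.25, 6.69, 7.53 and 6.87 on HFD, so chow library 5 was the highest and the groups overlapped. Without chow library 5 the median was -0.36. Orm2, an orosomucoid, had 96.2, 25.5, 37.8, 130 and 818 CPM on chow and 26.1, 31.1, 25.3, 55.8 and 18.3 CPM on HFD, with an estimated log2 fold change of -2.82 ± 0.96 (± SE; edgeR adjusted p = 0.57). Orm1, Saa1 and Lbp, the carrier of bacterial lipopolysaccharide, had -1.19 ± 0.46, -2.10 ± 0.89 and -0.59 ± 0.23 (SE).

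Metallothioneins and zinc transporters had a median of -0.29, with 3 of 10 above 0, and of -0.50 without HFD library 3. Mt1, a zinc-binding metallothionein, stood at 18.5, 6.60, 46.8, 13.3 and 73.2 CPM on chow and 14.0, 13.1, 6.21, 11.6 and 7.05 CPM on HFD, where chow libraries 3 and 5 were the highest. Mt2 had a log2 fold change of -1.68 ± 0.61 (SE). Slc39a4, a zinc importer, had 21.4, 15.98, 40.2, 43.9 and 28.1 CPM on chow and 8.79, 11.8, 21.7, 16.9 and 9.62 CPM on HFD (log2 fold change -1.12 ± 0.32, SE, adjusted p = 0.482). Complement and coagulation genes had a median of -0.14 with 6 of 32 above 0, and of -0.26 without chow library 1. C9 and C8b, of the membrane attack complex, had -0.83 ± 0.30 and -0.97 ± 0.37, and Mbl2, a mannose-binding lectin, 0.80 ± 0.29 (SE).

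Markers of Kupffer cells, the resident macrophages of liver, were all below 0, with a median of -0.72 over 14 genes and 5 with an unadjusted p under 0.05, where 3.26% of all genes were lower by that measure. In bulk tissue, fewer cells of a type and less RNA per cell cannot be told apart. The list level was 3.33, 2.13, 2.13, 2.19 and 3.05 on chow and 2.31, 1.94, 1.99, 2.32 and 2.10 on HFD. Chow libraries 1 and 5 were high, and the other 3 chow libraries lay within the HFD range. The median was -0.31 without chow library 1 and -0.25 with the mitochondrial share as a covariate. The summed level of the list was 215 to 450 CPM on chow and 223 to 363 CPM on HFD, and all 14 genes were detected.

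Timd4, a receptor for dying cells on long-resident Kupffer cells, was near the limit of detection, at 0.53, 0.35, 0.42, 0.11 and 0.66 CPM on chow and 0.17, 0, 0, 0.13 and 0 CPM on HFD (log2 fold change -2.76 ± 0.76, SE, adjusted p = 0.482). Clec4f, a lectin specific to mouse Kupffer cells, had 61.6, 15.6, 12.9, 17.2 and 48.4 CPM on chow and 16.7, 7.71, 16.3, 18.0 and 11.7 CPM on HFD. Csf1r, the receptor for macrophage colony-stimulating factor, had 64.1, 22.2, 27.2, 32.7 and 62.2 CPM on chow and 21.7, 23.3, 25.0, 30.3 and 18.0 CPM on HFD. For both genes chow libraries 1 and 5 held the high values. Folr2 had a log2 fold change of -1.28 ± 0.46, and the lysosomal macrophage genes Cd68 and Laptm5 had -0.65 ± 0.24 and -0.78 ± 0.25 (SE).

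The levels of the other immune lists overlapped between the groups. MHC class II presentation had a median of -0.61 with 0 of 10 above 0, and -0.30 without chow library 1. Cd74, the invariant chain, stood at 103, 38.6, 53.2, 108 and 59.8 CPM on chow and 29.3, 34.2, 30.6, 39.2 and 36.7 CPM on HFD (log2 fold change -1.09 ± 0.32, SE, adjusted p = 0.503). H2-Ab1 and H2-DMa had -0.64 ± 0.29 and -0.65 ± 0.30 (SE). Chemokines and their receptors had a median of -0.48 with 3 of 25 above 0, and -0.14 without chow library 1. Interferon-stimulated genes had -0.27 with 6 of 30 above 0, and 0.00 without chow library 1. Innate sensing genes had -0.25 with 4 of 25 above 0, and 0.00 without chow library 1. Irf7, a regulator of interferon genes, stood at 61.8, 33.8, 27.9, 35.7 and 66.4 CPM on chow and 23.1, 18.8, 33.4, 18.0 and 17.9 CPM on HFD.

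Recruited macrophage markers had a median of -0.40 (4 of 16 above 0; -0.10 without chow library 1), MHC class I genes -0.29 (3 of 15; -0.10 without chow library 1), T and NK cell markers -0.28 (5 of 18; -0.16 without chow library 1 and -0.49 without HFD library 1) and B and plasma cell markers -0.03 (8 of 18). The last was -0.22 with 6 of 18 above 0 without chow library 5, and -0.22 to 0.24 over all leave-outs. Neutrophil markers had the lowest median of all lists, -1.28 with 3 of 12 above 0, and -0.62 without chow library 5. With only the 2 groups compared, 9 of these genes were tested and the median was -0.62. Over 23 alternative settings it came as near to 0 as -0.14. The genes were low, with a mean list level of 0.57 on chow and 0.12 on HFD. Prtn3, proteinase 3, was at 82.7 CPM in chow library 5 and 5.26 CPM in chow library 4, against 0.18 to 0.71 CPM in the other chow libraries and 0.056 to 1.13 CPM on HFD. S100a8, a calprotectin subunit, was at 0.73 to 5.81 CPM on chow and 0.574 to 2.22 CPM on HFD. The plasma cell gene Ighg1, an immunoglobulin constant region, had 43.2, 4.87, 0.65, 25.9 and 45.9 CPM on chow and 3.35, 3.10, 4.505, 3.36 and 1.64 CPM on HFD. Among chemokines, Cxcl14 was at 51.4 CPM in chow library 5 and at 2.74 to 6.27 CPM in the other 9 libraries, and Cxcl16 and Cxcl1 had log2 fold changes of -0.67 ± 0.25 and -1.33 ± 0.54 (SE). Tlr5, the flagellin receptor, went the other way at 1.13 ± 0.35 (SE).

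**Figure D4:**
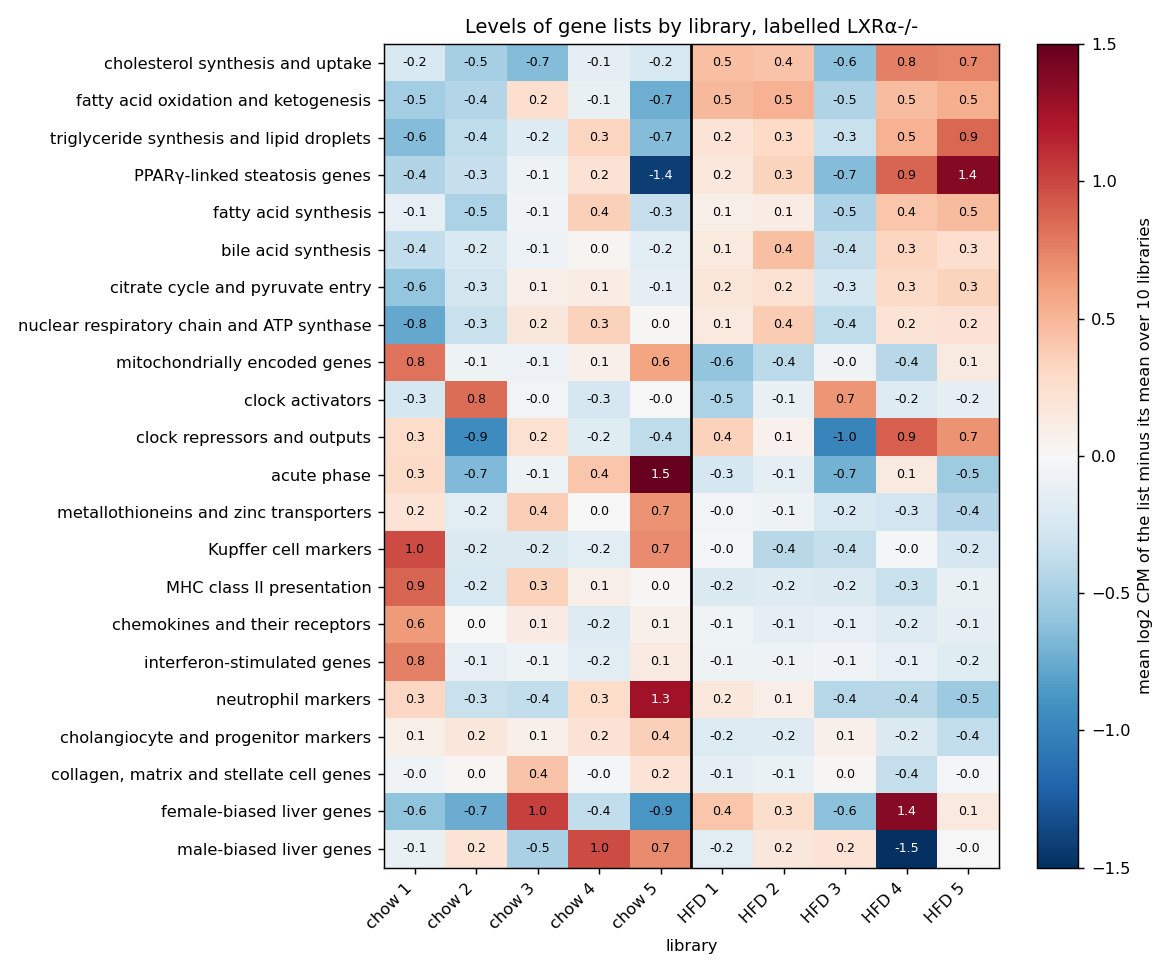
Level of 22 gene lists in each library (mean log2 CPM of the members minus its mean over the 10 libraries, coloured from -1.5 to 1.5), chow libraries left of the line and HFD libraries right of it. HFD library 3 has chow-like levels in the cholesterol and oxidation lists, chow library 1 is high in the Kupffer, MHC class II and interferon lists, and chow library 5 is high in the acute phase and neutrophil lists.

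Cholangiocyte and progenitor markers formed the single list whose level did not overlap between the groups, at 1.46, 1.53, 1.44, 1.58 and 1.72 on chow and 1.15, 1.17, 1.43, 1.15 and 0.99 on HFD. The groups came close, at 1.434 in HFD library 3 and 1.441 in chow library 3, and this is 1 of 56 lists, so little is read from the gap. The median was -0.69, with 3 of 13 above 0. It was -0.92 (without HFD library 3) to -0.66 when leaving out 1 library, and as near to 0 as -0.08 over 23 alternative settings. Krt19, a keratin of bile ducts, stood at 1.39, 2.10, 2.43, 2.84 and 3.96 CPM on chow and 1.08, 1.31, 1.64, 1.10 and 0.916 CPM on HFD (log2 fold change -1.07 ± 0.25, SE, adjusted p = 0.414). Muc1 and Prom1 had -0.87 ± 0.34 and -1.07 ± 0.46 (SE). The levels are low: Epcam, a defining marker, reached 0.098 to 0.67 CPM on chow and 0 to 0.45 CPM on HFD. The summed level of the list was 123 to 172 CPM on chow and 108 to 172 CPM on HFD, so the sum did not separate the groups.

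Collagen, matrix and stellate cell genes had a median of -0.24 with 6 of 24 above 0, and a summed level of 174 to 253 CPM on chow and 178 to 214 CPM on HFD. Acta2, smooth muscle actin of activated stellate cells, had 3.15, 4.57, 15.6, 4.30 and 6.45 CPM on chow and 1.94, 6.30, 2.37, 1.65 and 2.67 CPM on HFD, with a log2 fold change of -1.19 ± 0.47 (SE). Tagln, transgelin, had -1.01 ± 0.40 (SE). Sinusoidal endothelial markers had a median of -0.16 with 1 of 16 above 0 (-0.05 without chow library 5), erythroid genes 0.07 with 6 of 10 (-0.13 to 0.20 when leaving out 1 library), and adipocyte markers 0.07 with 5 of 9 (0.02 to 0.37). Immediate early and stress genes had -0.24 with 7 of 22 above 0 (-0.07 without chow library 1), and Junb had -1.09 ± 0.49 (SE).

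The clock repressors and outputs list had a median of 0.41 with 12 of 14 above 0, and its level was 4.46, 3.24, 4.41, 4.01 and 3.81 on chow and 4.54, 4.26, 3.20, 5.09 and 4.87 on HFD. Chow library 2 and HFD library 3 were the lowest of their groups, and clock activators were highest in the same libraries, at 3.93 and 3.76. Per3, a period gene, had 27.4, 5.72, 12.2, 11.6 and 10.6 CPM on chow and 29.9, 19.2, 5.09, 42.6 and 40.3 CPM on HFD, and Hlf had a log2 fold change of 0.44 ± 0.21 (SE). With the clock level as a covariate, the median was 0.42 for cholesterol synthesis and uptake and 0.38 for fatty acid oxidation. For clock repressors and outputs it was 0.01, but the clock level is itself computed from clock genes, Per3 among them. A value near 0 for that list therefore follows from the covariate and is no result. Without both libraries that stood apart, the cholesterol and oxidation medians were 0.74 and 0.65. The part of sampling time in these differences was not tested.

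Sex-biased liver genes were uneven as well. Female-biased genes had a median of 0.72 with 12 of 14 above 0, and levels of 0.50, 0.36, 2.14, 0.74 and 0.24 on chow and 1.53, 1.38, 0.50, 2.47 and 1.26 on HFD, where chow library 3 and HFD library 4 were the highest. The median was 1.66 without chow library 3 and 0.35 without HFD library 4. Male-biased genes had a median of -0.26 with 6 of 23 above 0, and HFD library 4 was the lowest at 5.61 (-0.14 without it). Major urinary proteins had -0.24 with 8 of 20 above 0, and 0.05 without chow library 5. Cyp17a1, a steroid hydroxylase, had 1.72 ± 0.65, and Moxd1, a monooxygenase, stood at 10.8, 0.54, 0.11, 11.4 and 79.1 CPM on chow and 0.26, 0.31, 0.79, 0.094 and 0 CPM on HFD (log2 fold change -6.11 ± 1.57, SE, adjusted p = 0.418).

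KEGG pathways were summarised as the deposited table assigns them. Of 303 pathways with 10 to 300 tested genes, 107 had a median above 0 and 196 below, from -0.48 to 0.56. The 8 highest were alpha-linolenic acid metabolism (0.56, 9 of 11 genes above 0), steroid biosynthesis (0.47, 13 of 14), butanoate metabolism (0.47, 17 of 21), fatty acid degradation (0.47, 35 of 43), fatty acid biosynthesis (0.46, 9 of 11), propanoate metabolism (0.40, 24 of 28), PPAR signaling (0.39, 51 of 69) and valine, leucine and isoleucine degradation (0.39, 37 of 44). The 8 lowest were asthma (-0.48, 0 of 12), inflammatory bowel disease (-0.41, 10 of 41), type I diabetes mellitus (-0.37, 7 of 34), graft-versus-host disease (-0.33, 6 of 31), allograft rejection (-0.33, 5 of 29), Staphylococcus aureus infection (-0.33, 10 of 47), leishmaniasis (-0.30, 12 of 57) and cell adhesion molecules (-0.29, 31 of 110). KEGG pathways share members with each other and with the gene lists, so their medians are no separate evidence. The 8 highest and 8 lowest were chosen by these values. Without chow library 1 the medians of the 8 lowest lay between -0.25 and -0.06, and those of the 8 highest lay between 0.23 and 0.69 when any 1 library was left out. None of these 16 pathways held a gene called by edgeR, and DESeq2 called Bdh1 in butanoate metabolism and Fabp2 in PPAR signaling.

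**Figure D5:**
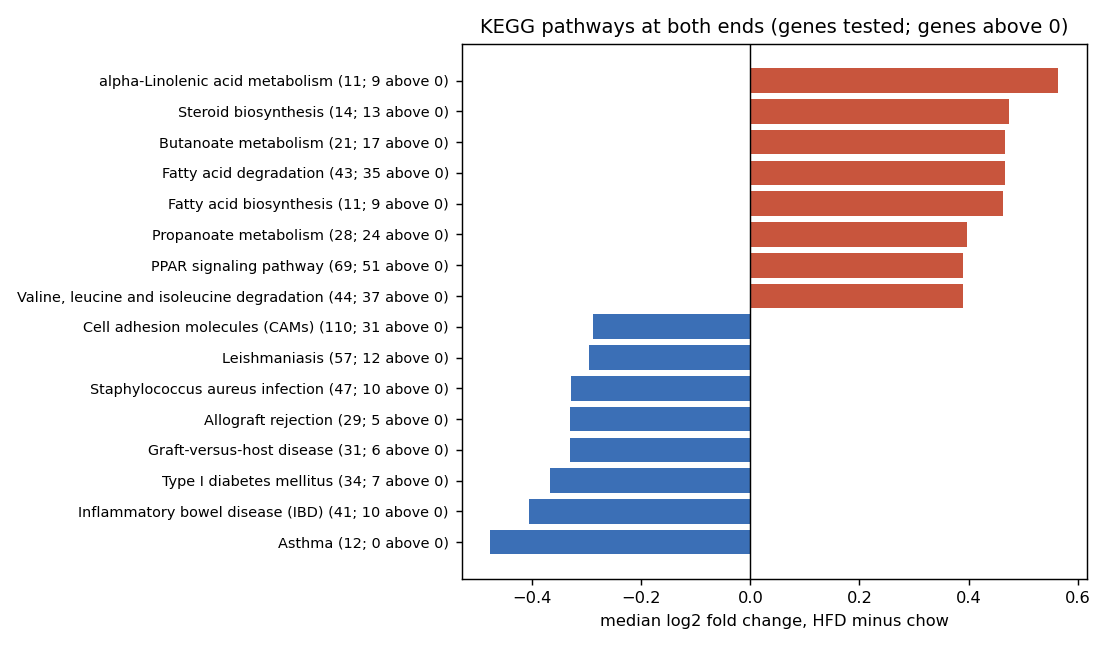
Median log2 fold change (HFD minus chow, x axis) of the 8 KEGG pathways with the highest and the 8 with the lowest median out of 303, with genes tested and genes above 0 in brackets. Lipid and branched-chain amino acid pathways lie at 0.39 to 0.56 and mainly immune pathways at -0.29 to -0.48.

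The diet response differed from that in WT for many genes. The same diet comparison in WT called 5547 genes (29.3%), and the test of the difference between the diet responses called 3661 (19.4%), with 6139 (32.5%) at an unadjusted p under 0.05. WT chow is the group with the low mitochondrial share given above. With that share as a covariate 76 genes passed the test of the difference. No library of the other groups went below 9.77%, so in this fit the share cannot be told apart from the WT chow group. The clock level was -5.68 to -3.82 in WT chow and -3.61 to 0.474 in WT HFD, without overlap. Fewer than 3661 genes passed with the clock level as a covariate, as given below. The WT groups thus differ in clock level and mitochondrial share as well as diet, and the part of each was not tested beyond these fits. In the cholesterol list 7 of 25 genes passed this test and the WT median was -0.34 against 0.65; in the oxidation list 11 of 27 passed and the WT median was -0.03 against 0.54; in the bile acid synthesis list 8 of 14 passed and the WT median was -0.82 against 0.28. All 15 mitochondrially encoded genes passed, with a WT median of 1.63 against -0.47, and 8 of 10 MHC class II genes, with 1.25 against -0.61. Of the acute phase genes 15 of 22 passed, with a WT median of -2.51 against -0.59. None of the 14 Kupffer cell markers and none of the 12 neutrophil markers passed, and their WT medians were -0.92 and -1.39.

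Among the 6 genes with the smallest p for the difference were Ssrp1, Acad11, Mir8114, Polr2m and Lrrc42, and for these the WT log2 fold change was below 0. Mir8114 is annotated as a miRNA and was at only 0.28 to 1.12 CPM in the 10 libraries. Whether its counts come from an overlapping gene was not tested. Acad11, an acyl-CoA dehydrogenase, had a log2 fold change of -2.65 in WT and 0.34 ± 0.20 (SE) here. Ssrp1, a histone chaperone subunit, had -2.96 in WT and -0.04 ± 0.17 (SE) here, where the sign changed with the scaling. Cpt1a had -1.55 in WT and 0.86 ± 0.26 (SE) here, with a difference of 2.41 (adjusted p = 0.00026). Saa1 had -9.17 in WT and -2.10 ± 0.89 (SE) here, with a difference of 7.07 (adjusted p = 0.0011).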

How the data were processed

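Poly(A)-selected RNA labelled as liver at week 24 was measured in 20 libraries, 5 per group, grouped by their titles. Per the file headers, each library has a column of raw counts and one of FPKM (fragments per length and depth), and the deposited counts are whole numbers; counts of 0 are listed at an FPKM of 0.0001. Tools named without roles in the submitters' processing notes are StringTie 1.3.0, HISAT2 2.0 and Bowtie 0.12.2, with the build mm8. Coordinates match GRCm38 instead: 99.6% of 55144 shared IDs have the start of GENCODE M21. For the counting program, strand and multi-mapping rules no statement was found, so paralogs and overlapping genes are uncertain.

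Counts were tested with edgeR 4.0.16 in R 4.3.3 (filterByExpr, TMM, quasi-likelihood F test, 1 mean per group over 20 libraries, two-sided, Benjamini-Hochberg, threshold 0.05). CPM values printed for genes use TMM factors; summed and defining markers use library totals. List levels are means of log2 CPM. The procedure was tested on simulated counts. Members and lists were chosen with earlier results of these data known, and lists carry no test. Named genes are Nr1h3 and Nr1h2; genes past the threshold or, to 12 per direction, those with the smallest p, at least 1 FPKM and groups that do not overlap; 4 per list by p, of which some are left out here; and 6 for the interaction. Map3k13, Poc1b, Galnt4, Oat, Fabp2, Hmgcs1 and marker genes were named after their values were seen. Every value column was mapped to a sample. Alternatives were other scalings, filters, limma 3.58.1 on log2(FPKM + 1) and log2(FPKM + 0.1), DESeq2 1.42.0, covariates, a block and leaving out libraries. Among the 20 pairs of libraries within the 2 groups compared, none agreed within counting error, and floors of 3 counts cover counting error only. Promoters are from RefSeq. Single values of some genes are not reported here.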

Additional observations from a re-analysis of the deposited data

Results flagged for a closer look

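Some libraries stood apart from the other 4 of their group by Dixon's criterion, in 12 of 126 groups of values (9.52%). Independent groups of values would give about 1 in 20 by chance. These groups come from the same 10 libraries and are not independent, so nothing is read from that share. HFD library 3 had the highest clock level of its group (-1.20) and the lowest levels of cholesterol synthesis and uptake (4.62), fatty acid oxidation and ketogenesis (6.15), urea cycle (7.30), citrate cycle (5.64) and proteasome genes (4.97, all mean log2 CPM). HFD library 4 was lowest in major urinary proteins (6.74) and male-biased genes (5.61), and HFD library 2 was lowest in Nr1h3 (27.2 CPM). On chow, library 1 had the highest pseudogene share (14.1%), library 2 the highest level of clock activators (3.93) and library 3 the highest level of female-biased genes (2.14).

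The diet response differed from that in WT for 66 of 129 genes named in the text (edgeR interaction, adjusted p under 0.05), and for 3661 or 19.4% of all genes tested. Some genes were named for their small interaction p, so nothing is read from that share. Values are the log2 fold change in labelled LXRα-/- minus that in WT. It was above 0 for Saa1 (7.07), Mt2 (5.77), Mir8114 (4.73), Mt1 (4.28), Poc1b (4.25), Lpin2 (3.88), Cyp17a1 (3.03), Acad11 (2.98), Ssrp1 (2.92), Mgll (2.91), Per3 (2.75), Polr2m (2.74), Cyp7a1 (2.68), Oat (2.42), Cpt1a (2.41), Suclg1 (2.40), Lrrc42 (2.38), Ehhadh (2.18), Msmo1 (2.11), Hsd17b7 (2.11), Cd36 (1.96), Tlr5 (1.96), Mpc1 (1.92), Papola (1.78), Dgcr2 (1.76), Tdo2 (1.70), Dnajc16 (1.69), Plin2 (1.65), Bdh1 (1.59), Pcna (1.59), Fads2 (1.57), Slc39a4 (1.52), Scp2 (1.42), Igsf11 (1.40), Abcb6 (1.39), Lbp (1.32), Map3k13 (1.26), 6030458C11Rik (1.20), Ccpg1os (1.16), Hsd17b4 (0.94) and Hlf (0.87). It was below 0 for Ighg1 (-5.97), Slc51a (-5.42), Ighg2b (-5.03), Gm25432 (-3.70), Spon2 (-3.47), mt-Rnr2 (-3.45), mt-Rnr1 (-3.39), Nkg7 (-3.29), Fgf21 (-2.82), Gm6285 (-2.70), Pltp (-2.58), mt-Nd1 (-2.09), H2-Ab1 (-2.05), Tmem81 (-2.04), Gm13889 (-2.02), Pdzk1ip1 (-1.85), Mir703 (-1.78), Lpl (-1.77), mt-Ta (-1.71), Rpl14 (-1.67), H2-DMa (-1.66), Irf7 (-1.34), Krt19 (-1.34), Des (-1.22) and Fetub (-0.99). WT chow has the lowest mitochondrial share of the 4 groups, and a fit with that share as a covariate cannot tell it from the group. The clock levels of the WT groups did not overlap either. The part of both in these differences was not tested beyond the covariate fits.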

How the results depend on the processing

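The 3 genes called for diet were 3 with other scalings, 4 without a filter and 2 with a stricter one. They were 8 and 7 with limma on log2(FPKM + 1) and log2(FPKM + 0.1), and 66 with DESeq2. With only the groups compared, 1 gene passed, Papola. The calls were 0 with the mitochondrial share as a covariate and 1 with the clock level as a covariate. They were 0 without both libraries whose clock level stands apart (chosen after seeing the data), and 0 to 15 when leaving out 1 library. The replicate block gave 1 call and 3315 calls for the interaction. Deviations of same-numbered labelled LXRα-/- libraries from their group means correlated at -0.205 to 0.0468. These few correlations show no pairing by number but cannot exclude a weak shared batch. Library totals moved the median of all genes to 0.14. The 3661 interaction calls became 76 with the mitochondrial share and 891 with the clock level as a covariate, and 3072 to 4145 when leaving out 1 library; library totals put 65.1% of them above 0, limma 74.6% and 69.7%, and the main test 52.9%. The Nr1h3 difference was 2.01 to 24.4 FPKM when leaving out 1 library.

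Signs changed only in genes near 0. The Ssrp1 log2 fold change became 0.12 with library totals, 0.0175 with totals without mitochondrially encoded genes, 0.0622 and 0.11 with limma, and 0.0617, 0.0088 and 0.0100 without chow library 1 or 3 or HFD library 1 (-0.125 to 0.0617 when leaving out 1 library). The Lrrc42 log2 fold change became -0.0248 without HFD library 1 (range -0.0248 to 0.154). Without chow library 4, the Nr1h3 log2 fold change became -0.10 (range -0.100 to 0.447) and the Nr1h2 log2 fold change -0.026. The latter became -0.0933 without HFD library 3 (range -0.0933 to 0.266) and -0.17 without both clock libraries. Under the alternatives 60 list medians moved by more than 1 SD between libraries and 1228 did not. That SD is wide for lists that vary among libraries, so the 1228 are no measure of stability. The interferon-stimulated median, for example, went from -0.27 to -0.002 without chow library 1 and counts as not moved. In 17 of 56 lists the median changed sign when 1 library was left out. The causes were not tested.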

Other observations

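Some genes fell into far-apart levels among libraries of the same group. Apoa5, an apolipoprotein that promotes triglyceride clearance, stood at 94.7, 86.6, 77.0, 1094 and 980 CPM on chow and at 144, 127, 86.0, 206 and 182 CPM on HFD. Apob, the scaffold of VLDL, stood at 893, 851, 1170, 1153 and 143 CPM on chow and at 209, 70.7, 573, 96.4 and 113 CPM on HFD. Their log2 fold changes were -1.64 ± 0.62 and -1.99 ± 0.89 (SE, edgeR adjusted p = 0.638 and 0.714). The libraries at the low level were not the same for both genes, nor the same as for Nr1h3 (chow library 4 and HFD library 2).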
